A study of Mus musculus with 10 samples.

Results

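Primitive streak and mesendoderm regulators are the genes that switch on when pluripotent cells of the epiblast leave that state for mesoderm and endoderm. In the embryo, Nodal and Wnt signals at the posterior epiblast induce the T-box factors T and Eomes, and these act with homeodomain and forkhead factors to set up the streak, the definitive endoderm and the anterior mesendoderm. Mouse embryonic stem (ES) cells in serum and LIF (leukaemia inhibitory factor, a cytokine that supports self-renewal) hold low amounts of these transcripts, which mark a minority of cells on their way out of pluripotency. The 10 genes described are T, Lhx1, Eomes, Mixl1, Gsc, Mesp1, Foxa2, Evx1, Cer1 and Wnt3. They were chosen by name with the MB-3 against DMSO values of these same libraries known, so their difference between the treatments is a description and carries no test. All 10 were found by gene identifier among the 30677 genes of the count table.

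The RNA-seq data covered 6 libraries of polyA-enriched RNA from TNGA cells, a mouse ES cell line in which GFP is expressed from a single Nanog allele. In 3 libraries the cells had received the vehicle DMSO and in 3 libraries MB-3, an inhibitor of the histone acetyltransferase Kat2a (Gcn5), at 100 µM, both for 48 hours. Cells of both groups grew in serum and LIF and had the same final volume of DMSO in the medium. By the labels and the study's methods the cells were treated in triplicate, and the libraries of each treatment are marked A, B and C. Whether the triplicates came from independently grown cell stocks or days is not stated, so p-values measure the spread between these treated samples. Where a fit takes the letter as a block, they measure the spread left after differences between letters are taken off. Total counts were 48144367, 51137896 and 46863700 in DMSO A, B and C, and 49334434, 44985772 and 42270312 in MB-3 A, B and C. Levels of a gene are given as CPM (counts scaled by the normalized library total).

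The ES label held in all 6 libraries. Pou5f1, the core pluripotency factor, had 672 ± 35.4 CPM in DMSO libraries and 676 ± 35.1 CPM in MB-3 libraries (SD, n = 3 each). Esrrb, a nuclear receptor of naive pluripotency, was at 676 ± 22.5 and 645 ± 5.75 CPM, and Zfp42 (Rex1), a naive marker, at 496 ± 22.2 and 519 ± 10.9 CPM. As RNA came from bulk cultures, fewer cells of a type and less RNA per cell cannot be told apart in any of the values below.

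The upstream regions of T and Lhx1 are printed because these genes lead the results, T in level and Lhx1 in the size of the difference. Both are the 250 bases before the RefSeq start in GRCm38.p6, written 5′ to 3′ on the strand of the gene, with CpG dinucleotides in capitals. T lies on the plus strand of chromosome 17 (chr17:8434173-8434422) and Lhx1 on the minus strand of chromosome 11 (chr11:84525535-84525784).
T: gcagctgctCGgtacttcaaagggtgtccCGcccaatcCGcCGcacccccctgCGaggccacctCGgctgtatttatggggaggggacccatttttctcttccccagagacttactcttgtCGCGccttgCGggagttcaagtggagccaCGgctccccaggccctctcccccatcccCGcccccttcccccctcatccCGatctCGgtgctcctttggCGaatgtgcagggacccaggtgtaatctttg
Lhx1: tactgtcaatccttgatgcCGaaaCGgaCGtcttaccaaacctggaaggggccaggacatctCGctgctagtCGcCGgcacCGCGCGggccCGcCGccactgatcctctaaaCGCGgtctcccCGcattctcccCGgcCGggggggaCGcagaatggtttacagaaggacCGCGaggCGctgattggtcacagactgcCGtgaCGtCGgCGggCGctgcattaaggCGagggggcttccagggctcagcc
The T region holds 14 CpG and 62.8% G or C, and the Lhx1 region holds 26 CpG and 64.8% G or C. Over 32851 upstream regions of the same length the medians were 6 CpG and 52.4%. RefSeq regions matched 9 members, with 3 start sites for Foxa2 and so 11 windows, and 8 of the 11 held more CpG than the median.

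These windows were searched on both strands for the letters of 4 motifs tied to streak signalling. The TCF/LEF letters CTTTGAT, read by the effectors of Wnt signalling, occur in 3.21% of all upstream windows, the T-box letters AGGTGTGA in 1.12%, the FOXH1 letters TGTGGATT, read by the partner of Smad2 in the Nodal response, in 0.718%, and the letters TAATCC, read by bicoid-type homeodomains such as that of Gsc, in 6.25%. Among the members there was a single match, a TCF/LEF word 31 to 25 bases before the RefSeq start of Mesp1, on the minus strand of chromosome 7. In GENCODE M21 the gene starts further out, at 79793788, so by that annotation the word lies within the gene. It is printed with its neighbours, the match in capitals.
Mesp1: gctcgagccggCTTTGATatgctgatgaa
A match describes the letters and is not evidence of a bound site, and for the windows without one it says only that these words do not occur in these bases.

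Compared per length of exon, as RPKM (CPM per kilobase of exon), the members in DMSO ran over a wide range. T was highest at 8.36 ± 5.16 RPKM (SD, n = 3), ahead of Eomes at 1.68 ± 0.683. Wnt3 at 0.914 ± 0.620 and Mixl1 at 0.875 ± 0.461 followed and did not differ beyond their spread. Lhx1 (0.258 ± 0.114 RPKM), Gsc (0.227 ± 0.0837), Evx1 (0.182 ± 0.0823) and Foxa2 (0.123 ± 0.0712) formed a lower group in which neighbours again lay within each other's spread. Mesp1 (0.0746 ± 0.0387) and Cer1 (0.0158 ± 0.0183) came last. With MB-3 the order kept T at 2.26 ± 0.860 and Eomes at 1.04 ± 0.190 RPKM on top, while Lhx1 at 0.0340 ± 0.0101 RPKM had a mean below those of Gsc, Evx1, Mesp1 and Foxa2, within the spread of Evx1 and Mesp1. In 6 of the 10 members at least 1 library had fewer than 10 counts, so that counting error is large for them.

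T (Brachyury), the T-box activator that defines the streak and nascent mesoderm, lies at chr17:8434423-8442496. Its level was 16.5, 9.05 and 32.5 CPM in DMSO A, B and C and 4.68, 3.58 and 7.44 CPM in MB-3 A, B and C, from 796, 454 and 1547 counts and 233, 157 and 319 counts. Every MB-3 library lay below every DMSO library, and within each treatment replicate C was highest and replicate B lowest. The DMSO mean was 19.3 ± 11.9 CPM and the MB-3 mean 5.23 ± 1.99 CPM (SD, n = 3), a fitted 3.70-fold lower level, or a log2 fold change of -1.89 (SE 0.36), which was -1.29 without DMSO C. The level left in MB-3 was 28.3% of DMSO for replicate A, 39.5% for B and 22.9% for C.

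Eomes, the T-box factor needed for definitive endoderm and for cells to leave the epithelium of the streak, differed less. Its level was 6.40, 4.51 and 10.1 CPM in DMSO A, B and C and 4.34, 3.55 and 5.13 CPM in MB-3. The groups overlapped, because MB-3 C was above DMSO B, although each MB-3 library was below the DMSO library of its own letter. The fitted log2 fold change was -0.69 (SE 0.23), 1.61-fold lower, and it was -0.33 without DMSO C. Eomes overlaps Gm33460 on the opposite strand, which had 9, 18 and 26 counts in DMSO and 2, 4 and 10 in MB-3 against 156 to 481 for Eomes.

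Lhx1 (Lim1), a LIM-homeodomain factor of the anterior mesendoderm that acts in head organizer tissue, had the lowest log2 fold change of the members. It was at 0.955, 0.638 and 1.55 CPM in DMSO A, B and C, from 46, 32 and 74 counts. In MB-3 it was at 0.161, 0.0911 and 0.163 CPM, from 8, 4 and 7 counts. The groups were far apart, with the highest MB-3 library below the lowest DMSO library. The means were 1.05 ± 0.464 and 0.138 ± 0.0410 CPM (SD, n = 3), which the fit put at 7.40-fold lower, a log2 fold change of -2.89 (SE 0.42). Of the level in DMSO, 16.8%, 14.3% and 10.5% was left in replicates A, B and C.

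Mixl1, a paired-type homeodomain factor of the streak and early endoderm, was at 1.60, 1.22 and 3.21 CPM in DMSO A, B and C. In MB-3 A, B and C it was at 0.442, 0.524 and 0.653 CPM. The groups did not overlap, and DMSO C was again the highest library. The log2 fold change was -1.90 (SE 0.35), 3.72-fold lower. Within MB-3 the spread was narrow, with C at 1.25 times B, against 2.64 times in DMSO.

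Evx1, an even-skipped type homeodomain gene of the posterior streak, was at 0.602, 0.259 and 0.713 CPM in DMSO A, B and C, from 29, 13 and 34 counts. In MB-3 it was at 0.141, 0.0683 and 0.280 CPM, from 7, 3 and 12 counts. MB-3 C was just above DMSO B, so the groups overlapped. The log2 fold change was -1.68 (SE 0.50), 3.20-fold lower, and it was -2.27 without MB-3 C. The antisense gene Evx1os, with 19, 8 and 45 counts in DMSO and 6, 0 and 7 in MB-3, overlaps Evx1, and without a stated use of strand their reads cannot be told apart.

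Gsc (Goosecoid), a bicoid-type homeodomain repressor and marker of the organizer, stood apart from the other tested members. It was at 0.187, 0.279 and 0.399 CPM in DMSO A, B and C and at 0.402, 0.182 and 0.140 CPM in MB-3, from 6 to 20 counts. MB-3 A was the highest of the 6 libraries and DMSO A was among the lower ones. The log2 fold change of -0.22 was smaller than its standard error of 0.46, and a difference was not detectable at this depth. It was -0.83 without MB-3 A and 0.08 without DMSO C.

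Wnt3, the ligand whose loss in the embryo prevents a streak from forming, was at 2.41, 1.14 and 4.89 CPM in DMSO A, B and C. In MB-3 A, B and C it was at 0.864, 0.660 and 1.80 CPM. MB-3 C was above DMSO B, so the groups overlapped, while within each letter MB-3 was lower and 35.9%, 58.1% and 36.7% of the DMSO level was left. The log2 fold change was -1.35 (SE 0.45), 2.55-fold lower, and it was -0.69 without DMSO C.

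For 3 members the counts were too low for the fit. Foxa2, the forkhead factor of endoderm and node, had 17, 5 and 20 counts in DMSO A, B and C and 7, 5 and 6 in MB-3, so that DMSO A and C stood above the other 4 libraries. Mesp1, a basic helix-loop-helix factor of the cardiac mesoderm, had 5, 7 and 2 counts in DMSO and 5, 1 and 5 in MB-3. Cer1 (Cerberus), a secreted antagonist of Nodal, Wnt and BMP, had 3, 1 and 0 counts in DMSO and 1, 0 and 1 in MB-3, and neither Mesp1 nor Cer1 differed in a way that counting error at this depth could resolve.

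**Figure D1:**
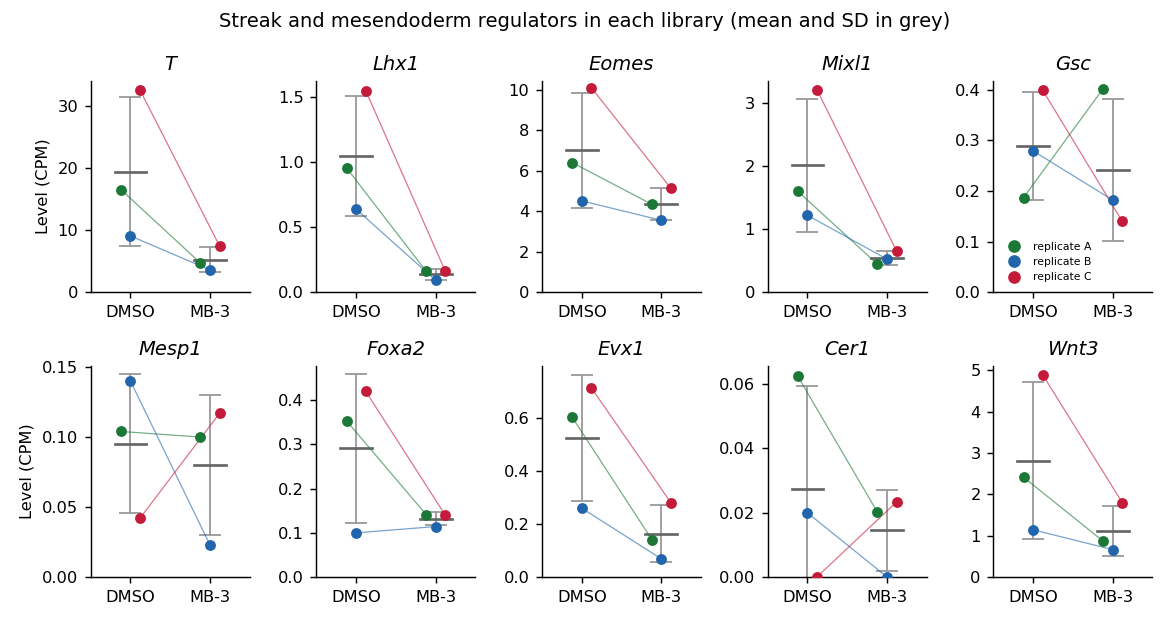
Level of each of the 10 members in CPM (linear axis from 0) in the DMSO and MB-3 libraries. Points are libraries coloured by replicate letter, lines join libraries of the same letter, grey bars are the mean and SD of 3 libraries (cut off at 0 for Cer1). T runs from 9.05 to 32.5 CPM in DMSO and from 3.58 to 7.44 CPM in MB-3, and replicate C is the highest DMSO library in all members but Mesp1 and Cer1.

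Among the members, T, Lhx1 and Mixl1 had every MB-3 library below every DMSO library, 3 of 10 and 3 of the 7 tested. Of the 20027 genes tested 7.37% did so. All 7 members that passed the filter on low counts had a lower fitted level under MB-3. Their log2 fold changes had a median of -1.68, against -0.00 over all genes tested. Ranked from the lowest log2 fold change of all 20027 genes, Lhx1 came 2, Mixl1 9, T 10, Evx1 15, Wnt3 49, Eomes 360 and Gsc 2438. Lhx1 and Evx1 passed the filter only through their DMSO libraries, so for them a lower level in MB-3 was built in. These genes were selected on this contrast, and nothing is read from the counts and ranks.

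How many members lay past the threshold of edgeR's quasi-likelihood test over all genes (adjusted p of 0.05, Benjamini-Hochberg) differed between fits without and with a replicate block. With treatment as the only term, 41 genes or 0.205% of all tested were past it and 0.105% in the lower direction, and among the members only Lhx1 lay there. With the replicate letter as a block, 1425 genes or 7.12% were past it and 3.90% in the lower direction, and T, Lhx1, Eomes, Mixl1, Evx1 and Wnt3 lay there. As the members were chosen on this contrast, these placements are a description and no test of them. The fitted differences hardly moved between these fits, while their standard errors fell. For T the log2 fold change was -1.82 with an SE of 0.10 under the block, for Wnt3 -1.31 with an SE of 0.19, and for Eomes -0.65 with an SE of 0.11. For Lhx1 (-2.87, SE 0.35), Evx1 (-1.70, SE 0.41) and Gsc (-0.25, SE 0.45), which have few counts, the error changed less.

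**Figure D2:**
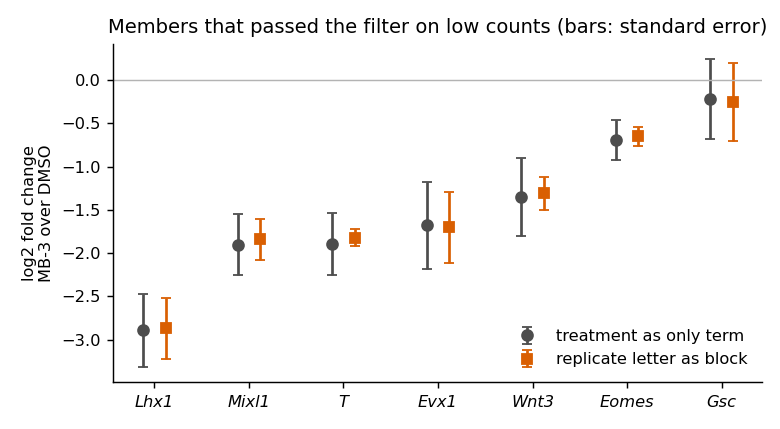
Log2 fold change of MB-3 over DMSO for the 7 members that passed the filter, with treatment as the only term (grey circles) and with the replicate letter as a block (orange squares). Bars are standard errors. The standard error of T goes from 0.36 to 0.10, and that of Gsc stays at 0.46 and 0.45 around values near 0.

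The levels of most tested members also went together from library to library within a treatment. In DMSO, the level in replicate C was 3.58 times that in B for T, 4.30 times for Wnt3, 2.75 times for Evx1, 2.64 times for Mixl1, 2.43 times for Lhx1 and 2.24 times for Eomes. In MB-3 the same ratio was 2.08 for T, 2.72 for Wnt3, 1.79 for Lhx1 and 1.44 for Eomes, in each case closer to 1. For Evx1 the MB-3 levels in C and B rested on 12 and 3 counts, at 0.280 and 0.0683 CPM, and were further apart than those in DMSO. For Lhx1 the MB-3 libraries held only 8, 4 and 7 counts in A, B and C, so its ratio and the order of C and A, at 0.163 and 0.161 CPM, are within counting error. T, Lhx1, Eomes, Evx1 and Wnt3 had the order C, A, B in both treatments, 5 of the 7 tested, where 6.06% of all genes tested had it. The difference between replicates C and B in DMSO was thus near in size to the difference between treatments for T, larger than it for Wnt3 and Eomes, and smaller for Lhx1 (2.43 against 7.40-fold), Mixl1 (2.64 against 3.72-fold) and Evx1 (2.75 against 3.20-fold). For these genes C and B are the highest and lowest DMSO libraries. A full range is thus set beside a fitted difference of groups, and the measures are unlike.

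Across the 6 libraries, Pearson's r of log2(CPM + 0.1) was 0.83 to 0.98 for the 15 pairs among T, Lhx1, Eomes, Mixl1, Evx1 and Wnt3. After the mean of each treatment was taken off, so that only the variation inside DMSO and inside MB-3 was left, it was 0.71 to 0.99. The tightest of these pairs were T with Eomes and T with Wnt3, both at 0.99, and the loosest was Mixl1 with Evx1 at 0.71. For the 6 pairs with Gsc the values were 0.16 to 0.38, and -0.09 to 0.39 within treatments. These r values are descriptive, over 6 points that share treatment, replicate letter and library depth.

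**Figure D3:**
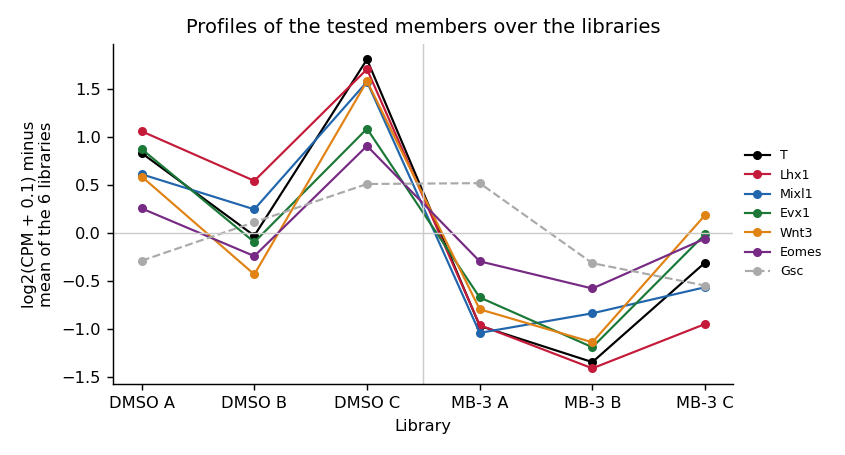
Profile of the 7 tested members over the 6 libraries, as log2(CPM + 0.1) minus the mean of the gene. DMSO C is the highest library for all but Gsc (dashed), and T, Lhx1, Eomes, Evx1 and Wnt3 share the order C, A, B in each treatment.

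Many other genes followed the same profile. Of 15916 other genes with a mean of at least 1 CPM, 633 (3.98%) had an r of at least 0.9 with T and 379 (2.38%) with Lhx1. The 5 closest to T were B230206L02Rik (r = 1.000), Gpm6a (0.999), Tgfb1i1, Apln and Pkia (0.997 each). Apln, the peptide ligand apelin, was at 4.49, 2.49 and 7.40 CPM in DMSO A, B and C and 1.55, 1.16 and 1.98 CPM in MB-3, a pattern much like that of T in size. Tgfb1i1 (Hic-5), a focal adhesion adaptor, was at 2.62, 1.89 and 3.75 CPM and 1.17, 1.07 and 1.56 CPM. The 5 closest to Lhx1 were Ak8 (r = 0.996), C2cd2l (0.993), Nupr1 (0.992), Atf4 (0.991) and Atp1b3 (0.990). Atf4, the transcription factor of the integrated stress response, was at 363, 355 and 387 CPM in DMSO and 306, 293 and 317 CPM in MB-3, a far smaller difference than that of Lhx1 with a like order. The genes named for Lhx1 depended on the settings. With a pseudocount of 1 CPM 1 of these 5 stayed among the closest 5, against 4 for T. With any 1 of the 6 libraries left out 0 to 2 of these 5 stayed among the closest 5, against 2 to 3 for T. By Spearman's rho 2 stayed for Lhx1 and 5 for T, but that does not compare them. T and Lhx1 had the same order of libraries (rho 1.00), and genes that share it, as all 5 named for T do, tie at the top.

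The wider streak network was read from 4 lists with 80 genes, of which 78 were in the table and 69 were tested. Without the block 0 of the 69 passed edgeR's quasi-likelihood test, 26 had an unadjusted p under 0.05 (2182 of all 20027 genes did), and DESeq2 called 9, limma-voom 0 and edgeR's robust option 3. With the replicate letter as a block 21 passed, 14 lower and 7 higher, where 7.12% of all genes tested passed and 3.90% were lower, the background for each count by list. The changes below are of that fit, with Benjamini-Hochberg adjusted p-values over all genes. These lists, and those of cell type markers, were chosen with earlier results of these data known, and the pairing by letter was taken from the data. Counts by list beside the background are therefore a description and no independent test.

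Among 14 other streak and nascent mesoderm genes 3 fell and 1 rose. Fgf8, the growth factor that drives cells out of the streak, was at 2.31, 1.46 and 4.85 CPM in DMSO A, B and C and at 0.623, 0.250 and 1.05 CPM in MB-3. All MB-3 libraries were below all DMSO libraries, the order C, A, B held in both, and the log2 fold change was -2.15 (SE 0.20, adjusted p = 6.6e-09, edgeR with block), against an adjusted p of 0.083 without it. Without the block, leaving out DMSO C moved Fgf8 from -2.16 to -1.55. Cyp26a1, which degrades retinoic acid, fell by 1.73 on the log2 scale (SE 0.24, adjusted p = 5.6e-06) from 2.13 ± 0.873 to 0.634 ± 0.212 CPM. Cdh2 (N-cadherin), gained as cells leave the epithelium, fell by 0.65 (SE 0.09, adjusted p = 1.6e-05). Mest (mesoderm specific transcript), an imprinted gene, rose by 0.24 (SE 0.05, adjusted p = 0.002). Bmp4, which acts upstream of Wnt3 in the embryo, was at 11.9 ± 1.18 and 10.2 ± 0.941 CPM and did not pass (adjusted p = 0.086). Snai1, Tbx6, Mesp2, Pdgfra and Kdr, which act in mesoderm formation or mark it, did not pass either, with log2 fold changes from -0.40 to 0.00. The list had a median of -0.14 (log2, without the block).

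Of 25 Wnt pathway genes tested, 6 fell and 4 rose, and the list had a median of 0.02 (log2, without the block). Those that fell were Cdx1 (by 1.45), Rspo3 (by 1.39), Sp5 (by 1.17), Rnf43 (by 0.98), Wls (by 0.57) and Axin2 (by 0.46). Cdx1 and Rspo3 were each at 0.205 CPM in MB-3 B, from 9 counts. As for Lhx1 and Evx1, their MB-3 libraries alone would not have passed the filter on low counts. In the fit without the block, leaving out DMSO C moved the log2 fold change of Sp5 from -1.25 to -0.66, of Rspo3 from -1.43 to -0.91, of Wls from -0.58 to -0.36 and of Axin2 from -0.47 to -0.27, and leaving out DMSO B moved that of Lrp6 from 0.17 to 0.11. Sp5, Axin2, Cdx1 and Rnf43 are known targets of beta-catenin, Rspo3 is a secreted amplifier of the pathway, and Wls carries Wnt ligands to the cell surface. Sp5 was at 2.87, 2.41 and 6.73 CPM in DMSO A, B and C and 1.81, 1.30 and 1.91 CPM in MB-3, again with DMSO C far above the rest (adjusted p = 2.0e-05, edgeR with block). Axin2 was at 6.15, 6.02 and 8.89 CPM and 5.20, 4.28 and 5.67 CPM (adjusted p = 0.004). Both had groups that did not overlap. The genes that rose were Lef1 (by 0.60), Notum (by 0.38), and the receptors Fzd7 and Lrp6 (by 0.17 each). Lef1, a nuclear partner of beta-catenin, was at 2.85, 4.47 and 4.13 CPM in DMSO and 6.19, 5.87 and 5.11 CPM in MB-3, with every MB-3 library above every DMSO library. Notum, a secreted enzyme that inactivates Wnt ligands and is itself a target in many tissues, went the opposite way to Sp5 and Axin2. Ctnnb1 (beta-catenin) was at 712 ± 12.7 and 720.5 ± 26.0 CPM and differed by 0.02 on the log2 scale (SE 0.04). Wnt3a, Dkk1 and Lgr5 had too few counts to be tested.

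Of 18 Nodal and Activin genes, 4 fell and 1 rose, and the list had a median of -0.06 (log2, without the block). Among those that fell, Lefty1 and Lefty2, feedback inhibitors of Nodal, fell by 0.34 and 0.36 (SE 0.05 each, adjusted p = 2.7e-05 and 3.8e-05, edgeR with block), and Pcsk6, a convertase that matures the ligand, fell by 0.30 (adjusted p = 0.002). Without the block, Lefty1 moved from -0.35 to -0.20 when DMSO B was left out. Lefty2 was at 84.2, 80.7 and 73.5 CPM in DMSO and 57.3, 64.8 and 64.3 CPM in MB-3, so its order among DMSO libraries was not that of T. Skil (SnoN), a brake on Smad signalling, rose by 0.28. Nodal had a log2 fold change of -0.11, its co-receptor Tdgf1 (Cripto) 0.02, Foxh1 -0.05 and Smad2 0.10, and none of these 4 passed.

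Of 12 other endoderm and anterior mesendoderm genes, 1 fell and 1 rose, and the list had a median of -0.21 (log2, without the block). Nog (Noggin), a BMP antagonist of node and notochord, was at 1.54, 0.917 and 2.45 CPM in DMSO A, B and C and 0.784, 0.319 and 1.07 CPM in MB-3, with the order C, A, B in both (log2 fold change -1.18, SE 0.22, adjusted p = 6.7e-04, edgeR with block). Without the block it moved from -1.17 to -0.75 when DMSO C was left out. Otx2, which also marks primed epiblast, rose by 0.30. Gata6, Gata4, Foxa1, Foxa3, Cxcr4 and Hhex had log2 fold changes from -0.33 to -0.13 and did not pass. Sox17, Shh and Noto were among the genes with too few counts to be tested.

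**Figure D4:**
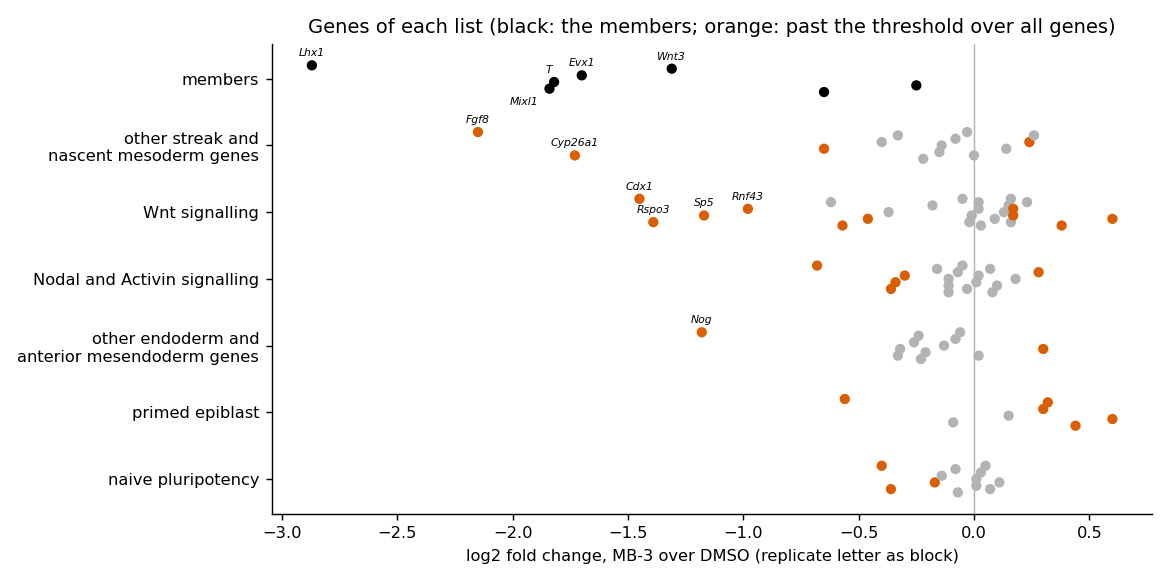
Log2 fold change of MB-3 over DMSO with the replicate letter as a block, 1 point a gene, by list. The members are black, and other genes are orange where past the threshold over all genes tested and grey where not. The far left holds Lhx1 at -2.87 among the members and Fgf8 at -2.15 and Cyp26a1 at -1.73 among the other streak genes, while most Wnt and Nodal genes lie near 0.

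Markers of the pluripotent states did not all go one way. Of 6 general pluripotency genes 2 rose under the block, Utf1 by 0.28 (adjusted p = 0.002, edgeR) and Sall4 by 0.19 (adjusted p = 0.044), and the list summed to 1963, 2215 and 1943 CPM in DMSO A, B and C and 2081, 2155 and 2133 CPM in MB-3. Under the block 3 of 12 naive genes fell, Tbx3 (by 0.40), Tcl1 (by 0.36) and Tfcp2l1 (by 0.17), and the summed level of the list was 2461, 2423 and 2278 CPM in DMSO A, B and C and 2268, 2296 and 2346 CPM in MB-3. Of 7 primed epiblast genes 4 rose, Dnmt3b, Zic2, Lef1 and Otx2, and Fgf5 fell. Dnmt3b, a de novo DNA methyltransferase, was at 341, 355 and 341 CPM in DMSO and 425, 437 and 433 CPM in MB-3, and Zic2, a zinc finger factor, at 32.0 ± 2.03 and 43.3 ± 2.39 CPM. Without the block these genes also passed edgeR's test (adjusted p = 0.036 and 0.031), as did Tbx3 (adjusted p = 0.024). With 1 library left out in turn, Dnmt3b kept its call only without DMSO B (adjusted p = 0.006, otherwise 0.067 to 0.226, edgeR), and Zic2 and Tbx3 only without DMSO B or MB-3 C. Over these fits the log2 fold change ran from 0.31 to 0.34 for Dnmt3b, 0.39 to 0.48 for Zic2 and -0.42 to -0.37 for Tbx3. Apart from the fit without MB-3 C, the fits that lost these calls passed only 0 to 5 of all genes, so those losses went with a loss over all genes. That does not hold for Dnmt3b without MB-3 C, where 62 genes passed, against 41 with all libraries. Fgf5, a growth factor of the primed epiblast, ran from 4.88 CPM in B to 11.6 CPM in C in DMSO (8.16 ± 3.36, SD, n = 3) and was at 4.52, 4.69 and 7.04 CPM in MB-3, so that DMSO C was its highest library, as for the tested members other than Gsc. Without the block, leaving out DMSO C moved Fgf5 from -0.59 to -0.25 and Sall4 from 0.18 to 0.08, leaving out DMSO B moved Sall4 to 0.30 and Utf1 from 0.27 to 0.42, and leaving out DMSO A moved Tfcp2l1 from -0.17 to -0.10. The summed level of the primed list was 468, 486 and 479.9 CPM in DMSO and 586, 585 and 594 CPM in MB-3, with Dnmt3b its most abundant gene.

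Markers of other cell types that a serum culture could hold moved with the members in some lists and not in others. The summed level of 6 simple epithelium genes was 270.3, 203 and 413 CPM in DMSO A, B and C and 176, 153 and 249 CPM in MB-3, the order C, A, B in both. In this list Krt8, Krt18 and Krt19 fell under the block by 1.18, 0.87 and 1.55, and its most abundant gene Cldn4 did not (log2 fold change -0.09). In the fit without the block these falls became smaller when DMSO C was left out, from -1.22 to -0.64 for Krt8, from -0.92 to -0.48 for Krt18 and from -1.58 to -1.04 for Krt19. The same held for Tagln (-1.41 to -0.72), Acta2 (-0.52 to -0.30), Nes (-0.71 to -0.37), Sparc (-0.49 to -0.23) and Col4a1 (-0.47 to -0.30, and -0.29 without MB-3 B), described next. The 8 fibroblast-like genes held 5 that fell, Vim, Tagln, Acta2, Col1a1 and Col1a2, and their sum, 1856, 1346 and 1737 CPM in DMSO and 1640, 1461 and 1535 CPM in MB-3, was mostly Fn1, which did not change. Tagln, an actin-binding protein, was at 37.2, 19.3 and 79.9 CPM and 14.5, 9.24 and 27.7 CPM, and Vim (vimentin) also passed edgeR's test without the block (log2 fold change -0.80, SE 0.09, adjusted p = 0.014). That call for Vim was lost without MB-3 A (log2 fold change -0.78, adjusted p = 0.122, edgeR) and without MB-3 B (-0.79, adjusted p = 0.103). In both of those fits 0 of all genes passed, so the lost call does not set Vim apart from other genes. Of 11 extraembryonic endoderm genes tested Sparc and Col4a1 fell, and the list summed to 146, 119.9 and 183 CPM in DMSO and 115, 110.0 and 129 CPM in MB-3, with Sparc its most abundant gene. Of 4 neuroectoderm genes tested Nes fell by 0.68 and Pax6 rose by 0.39, and the list summed to 69.8, 66.3 and 89.7 CPM in DMSO A, B and C and 65.2, 61.4 and 68.0 CPM in MB-3, the order C, A, B in both, with Nes its most abundant gene. Of 6 trophoblast genes tested only Tfap2c passed, rising by 0.17, and its list summed to 72.7, 68.6 and 70.5 CPM and 77.4, 75.0 and 78.7 CPM. In none of these lists was a listed gene of the table at 0 in every library. The part of these cell types in the levels of the members was not tested.

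**Figure D5:**
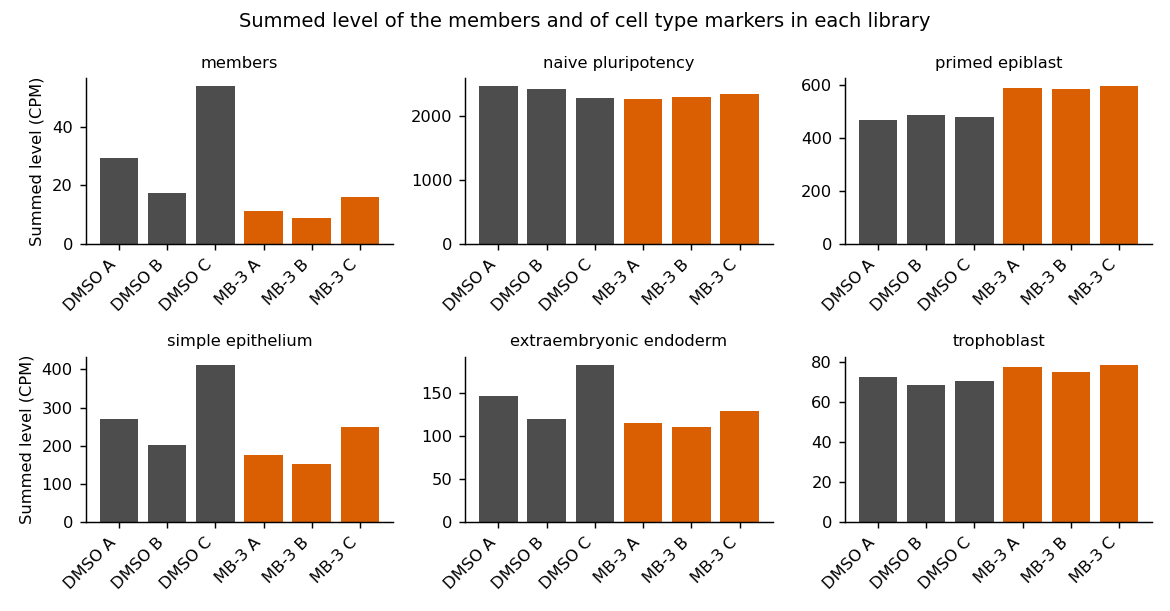
Summed level in CPM (linear axes from 0) of the 10 members and of 5 marker lists in each library, DMSO in grey and MB-3 in orange. The members sum to 29.2, 17.3 and 53.8 CPM in DMSO A, B and C and 11.3, 8.79 and 15.9 CPM in MB-3. The sums of simple epithelium and extraembryonic endoderm share the high DMSO C library, and those of the naive, primed and trophoblast lists do not. The trophoblast sum is mostly Tfap2c, and Cdx2, Hand1, Gata3 and Krt7 of that list have C as the highest DMSO library.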

How the data were processed

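Reads were single-end. The authors used Bowtie to align them to mm10 after trimming, took raw counts over exons with GenomicAlignments and deposited these counts by Ensembl gene. Versions, annotation and whether strand was used are not given in the sources used here. Of 30677 genes 30540 were paired with a symbol, and coordinates and exon lengths came from GENCODE M21 on GRCm38, the assembly mm10 denotes. The H3K9ac peak lists, on mm9, were not used here.

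Genes were filtered with filterByExpr (20027 kept), normalized by TMM and tested with glmQLFit and glmQLFTest of edgeR 4.0.16 in R 4.3.3, with treatment as the only term and Benjamini-Hochberg adjustment at 0.05. CPM are counts over the normalized library size. RPKM divides CPM by exon length. Over all genes tested, the log2 fold change had a median SE of 0.10. The steps were tested on simulated data. DESeq2 1.42.0 and limma 3.58.1 served as alternatives, with other normalizations and filters and each library left out.

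Replicate letters were taken as pairing the samples, from the data and not the labels. Deviations from the treatment means correlated at 0.115 (A), 0.287 (B) and 0.232 (C) over 20027 genes, against -0.23 to -0.02 for unlike letters. All 3 were above the limit of 0.1, A only just. Deviations within a treatment sum to 0 for each gene, so the negative values for unlike letters are not separate support. The pairing came from the same counts that the block fit tests, so p-values of that fit depend on a pairing the labels do not state. No libraries of the same treatment were duplicates.

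The members and all gene lists were chosen with earlier results of these data known. Named list genes are those past the threshold in either fit and the most abundant 2 of each list. Results for some of these genes are not reported here.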

Additional observations from a re-analysis of the deposited data

How the results depend on the processing

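The count of differentially expressed genes, 41 with treatment as the only term, was 39 with RLE and 25 with upper quartile normalization, 194 with no filter on low counts, 25 with at least 10 counts in every library, 192 with DESeq2, 18 with limma-voom and 66 with edgeR's robust option. With the replicate letter as a block it was 1425. With each library left out in turn it was 0 to 520, with 520 without DMSO B, 62 without MB-3 C, 5 without DMSO C, 3 without DMSO A and 0 without MB-3 A or MB-3 B (where 1440 and 1716 genes had an unadjusted p under 0.05). The count of list genes past the threshold, 4, was 18 with no filter, 15 with DESeq2, 8 with the robust option, 42 with the replicate block, 4 with the other settings that keep every library, and 0 to 34 with a library left out (34 without DMSO B). Members past the threshold numbered 1, and 6 with the replicate block or without DMSO B, 3 with no filter, 2 with DESeq2 or without MB-3 C, 0 with at least 10 counts in every library, a filter that removed Lhx1 from the test, and 0 with limma-voom or without DMSO A, DMSO C, MB-3 A or MB-3 B. The cause of these shifts was not tested. The members with groups that did not overlap were 3 under all 3 other scalings. Across the alternatives the log2 fold change of T ran from -2.23 to -1.29, Lhx1 from -3.15 to -2.49, Mixl1 from -2.16 to -1.39, Evx1 from -2.27 to -1.33, Wnt3 from -1.87 to -0.69, Eomes from -0.93 to -0.33 and Gsc from -0.83 to 0.08, so only Gsc changed sign. Other log2 fold changes that changed sign did so near 0. Leaving out 1 library in turn gave -0.03 to 0.05 for Tdgf1 (-0.00 without DMSO C), -0.01 to 0.03 for Ctnnb1, -0.04 to 0.05 for Pou5f1 (-0.02 without DMSO A and -0.01 without DMSO C), -0.01 to 0.07 for Lin28a, -0.12 to 0.00 for Lama1, -0.20 to 0.02 for Ascl2 and -0.13 to 0.11 for Fn1, which was 0.01 with limma-voom and with the replicate block. Depth limits Gsc, Foxa2, Mesp1 and Cer1, with at most 20 counts in any library.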
